A study of Mus musculus with 3 samples.

Results

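Among the nucleosome positions listed in mouse fetal liver erythroblasts on day 2 of culture, 598031 of 4382151 on the autosomes lay more than 500 bp from every position centre listed on day 0 or day 1. They are called far positions below, and the other 3784120 are the remaining day 2 positions. Far positions were selected on the listed centres alone, so their distances are given as a description, and so is every other difference between the 2 groups, since both come from 1 library. Erythroblasts are the nucleated precursors of red cells. The cells were Ter119-negative when culture began, came from 6 fetuses, and were grown in IMDM with fetal bovine serum, erythropoietin, BSA and insulin. All 3 groups shared this medium and differed in the day, which was day 0, day 1 or day 2, with 1 library each. The labels do not give strain, age or genotype. Chromatin was cut with micrococcal nuclease, which digests the linker between nucleosomes, and the protected single-nucleosome DNA was sequenced.

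A nucleosome is DNA wrapped around a histone core, and a listed position is a place where protected fragments pile up often enough for the authors' caller to write it down. Late in red cell formation the nucleus condenses and is then expelled, and transcription declines. Closed chromatin in mammals is concentrated in gene-poor sequence, in long genes of other tissues and in arrays of receptor genes of the nose. An absent entry in a list does not show an absent nucleosome, because a position with too few fragments is not written down.

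On the autosomes, day 0 had 3689577 listed positions, day 1 had 2967550 and day 2 had 4382151, each 140 bp wide. How many reads lie behind each list is unknown here. On the day 2 list the summit value, read here as the authors' scaled coverage at a centre, lay within 0.01 of a whole multiple of 0.6255 for 98.7% of positions. One multiple is called a step. There was no replicate library, so no difference between groups or days has a replicate check, no test was made, and the errors below are exact Clopper-Pearson 95% intervals, which cover counting error only, or SDs over the 19 autosomes of this library.

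Few far positions lay at annotated start sites, and the sequences of the highest of these show where such a position sits. RefSeq promoter windows (GRCm38.p6, the build also called mm10) run from 250 bases before to 50 bases after a start, and 31365 of them lie on the autosomes analysed with this table. A far centre lay in 745 windows of 702 gene symbols, of which 403 belong to protein-coding genes and 342 to lncRNAs. The 6 windows below, 1 per gene, hold the far positions with the highest summit values among them, ties included. Capitals mark the bases of the window that fall in the 140 bp position, with the files' start coordinate read as the base before the first. This convention is not stated in the files, so the marked stretch may be shifted by 1 base.
1700054K19Rik: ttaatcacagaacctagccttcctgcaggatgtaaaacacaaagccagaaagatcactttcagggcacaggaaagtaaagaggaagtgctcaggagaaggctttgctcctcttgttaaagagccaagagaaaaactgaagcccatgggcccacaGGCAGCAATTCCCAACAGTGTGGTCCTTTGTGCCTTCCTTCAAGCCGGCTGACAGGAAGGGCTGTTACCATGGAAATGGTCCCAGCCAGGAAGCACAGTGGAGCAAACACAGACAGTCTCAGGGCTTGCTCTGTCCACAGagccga
Gm41228: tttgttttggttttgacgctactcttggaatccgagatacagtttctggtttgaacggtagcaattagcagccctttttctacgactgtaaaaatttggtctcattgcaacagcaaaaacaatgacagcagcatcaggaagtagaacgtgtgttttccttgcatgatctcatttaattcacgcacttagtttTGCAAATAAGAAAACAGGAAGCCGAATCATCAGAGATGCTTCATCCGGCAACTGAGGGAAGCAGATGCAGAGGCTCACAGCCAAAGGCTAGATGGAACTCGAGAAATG
AW551984: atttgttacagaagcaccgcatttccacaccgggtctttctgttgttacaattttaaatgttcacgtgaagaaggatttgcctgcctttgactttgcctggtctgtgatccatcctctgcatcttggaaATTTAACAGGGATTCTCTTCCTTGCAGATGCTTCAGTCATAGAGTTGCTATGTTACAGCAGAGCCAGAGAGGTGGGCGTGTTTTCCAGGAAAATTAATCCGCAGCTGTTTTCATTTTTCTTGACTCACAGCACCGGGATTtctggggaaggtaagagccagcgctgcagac
Gm34662: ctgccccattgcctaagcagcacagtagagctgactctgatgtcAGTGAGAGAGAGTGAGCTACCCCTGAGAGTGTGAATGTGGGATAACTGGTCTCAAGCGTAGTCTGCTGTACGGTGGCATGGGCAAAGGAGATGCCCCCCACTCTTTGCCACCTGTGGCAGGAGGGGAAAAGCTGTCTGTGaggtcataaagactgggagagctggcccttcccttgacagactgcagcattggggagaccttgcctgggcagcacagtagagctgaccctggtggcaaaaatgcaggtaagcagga
Prl2c3: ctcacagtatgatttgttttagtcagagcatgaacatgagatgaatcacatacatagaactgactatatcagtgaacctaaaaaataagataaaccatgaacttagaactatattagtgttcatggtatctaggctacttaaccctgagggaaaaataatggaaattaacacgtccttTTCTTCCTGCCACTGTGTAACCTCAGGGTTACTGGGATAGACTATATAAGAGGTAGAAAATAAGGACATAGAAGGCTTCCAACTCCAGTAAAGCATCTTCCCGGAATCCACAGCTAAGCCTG
Zfp868: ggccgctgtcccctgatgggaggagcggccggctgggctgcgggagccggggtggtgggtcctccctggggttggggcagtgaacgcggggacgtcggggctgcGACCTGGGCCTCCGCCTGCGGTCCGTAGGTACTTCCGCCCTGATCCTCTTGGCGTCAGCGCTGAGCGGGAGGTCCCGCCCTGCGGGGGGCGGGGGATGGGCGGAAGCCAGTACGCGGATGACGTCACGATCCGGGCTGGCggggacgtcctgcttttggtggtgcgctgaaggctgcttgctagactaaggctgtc
The window of 1700054K19Rik, a lncRNA, is at chr6:112210458-112210757 on the plus strand, and the far centre had a summit value of 13.1, 753 bp from the nearest day 0 centre and 1630 bp from the nearest day 1 centre. Gm41228, also a lncRNA, is at chr14:98904880-98905179 on the plus strand, with a summit value of 13.1 and distances of 650 and 670 bp. AW551984, a protein-coding gene, is at chr9:39604221-39604520 on the minus strand, and its far centre (11.3) was 2515 and 4030 bp from the day 0 and day 1 centres. The lncRNA Gm34662 is at chr12:38983951-38984250 on the minus strand, with 11.3 and distances of 835 and 3085 bp. Prl2c3, a gene of the prolactin family, is at chr13:12800030-12800329 on the minus strand, with 11.3 and distances of 550 and 680 bp. Zfp868, a zinc finger gene, is at chr8:69625126-69625425 on the minus strand, with 11.3 and distances of 1000 and 605 bp. Its window stands apart in composition, with 71.3% G and C and 29 CpG dinucleotides, against 38 to 55.7% G and C and 2 to 9 CpG in the other 5 windows.

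Promoter windows with a far centre were poor in G, C and CpG. Their median share of G and C was 44% (quartiles 38.7 and 48.3%), against 56% (49 and 64.7%) in the 19299 windows that held only remaining positions and 48.7% in the 11321 windows with no day 2 centre. The median number of CpG dinucleotides was 2, against 10 and 5. A ratio of observed to expected CpG of at least 0.6, a usual mark of CpG islands, was found in 2.95% of windows with a far centre, 41.2% of windows with remaining positions only and 30.4% of windows with none. Among protein-coding genes alone the medians were 43.3, 59.3 and 52.3%. The letters TATAAA, searched on both strands, were in 193 windows with a far centre (25.9%), in 9.98% of those with remaining positions only and in 13.6% of all windows. The letters AGATAA, a form of the GATA factor motif, were in 19.3%, 9.15% and 11.2%, and TGATAA in 13.7%, 7.22% and 9.04%. The letters CACCC, a core of the motif bound by KLF factors, were in 45.2%, 62.7% and 57.7%. The shares of these letters moved with base composition, and the part of composition in them was not tested.

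Far positions made up 13.6% of the day 2 positions on the autosomes (95% interval 13.6 to 13.7%). They lay a median of 1105 bp from the nearest earlier centre, with a 10th percentile of 575 bp, a 90th of 3455 bp and a maximum of 52555 bp. The remaining positions lay a median of 50 bp from one. Of the far positions, 55.2% were more than 1000 bp away, 24.7% more than 2000 bp, 4.31% more than 5000 bp and 0.398% more than 10000 bp. Most of the day 2 list sat close to earlier centres, with 44.1% within 50 bp. The 42129 positions just inside the rule, over 500 and up to 550 bp away, had a mean summit value of 5.84 and a median fuzziness score of 48.5, and 63.5% of them lay outside protein-coding genes. The 47553 positions just outside it, over 450 and up to 500 bp away, had 5.86, 48.6 and 62.1%. The 2 sides of the limit were thus nearly alike, and no step was seen at 500 bp.

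**Figure D1:**
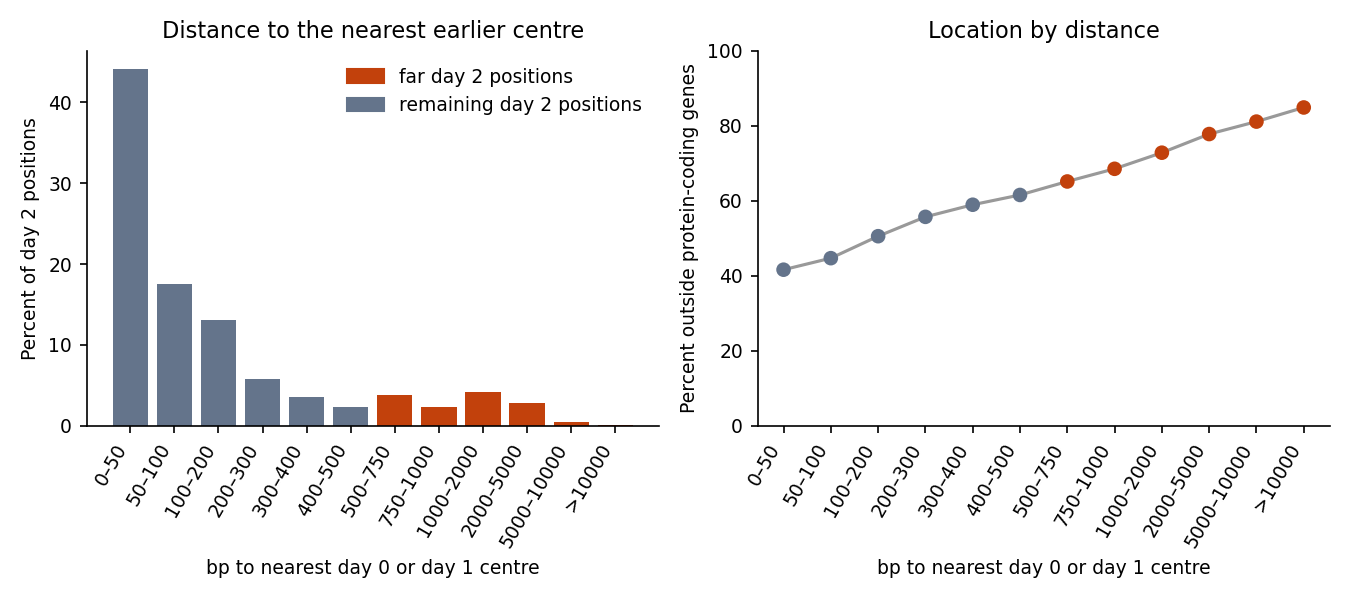
Left: share of day 2 autosome positions (%) by distance in bp to the nearest day 0 or day 1 centre, in classes of unequal width. Right: share of each class outside protein-coding genes (%). Orange marks far positions and grey the remaining ones, and the share outside genes rises from 41.6% within 50 bp to 84.9% beyond 10000 bp.

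The same rule took fewer positions from the other lists. Of the day 0 positions, 214600 (5.82%) lay more than 500 bp from every day 1 and day 2 centre, and of the day 1 positions 58807 (1.98%) lay so far from every day 0 and day 2 centre. The number of far day 2 positions was 2.79 times the day 0 number and 10.2 times the day 1 number. List length moved with this order. When each list was cut to its 2967550 highest summit values, the length of the shortest, the shares were 8.79% for day 0, 4.67% for day 1 and 11.9% for day 2, and the ratio in numbers was 1.36 for day 2 to day 0 and 2.56 for day 2 to day 1. The day 2 list had the highest share in both forms, with smaller ratios at equal length. The lists taken alone gave 20.6% of day 2 positions beyond 500 bp of day 0 and 27.6% beyond 500 bp of day 1.

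Far positions had low summit values and low fuzziness scores. Their median summit value was 5.004, against 6.26 for the remaining positions, with the same median on each autosome in both groups, and their mean was 5.74 ± 0.030 (SD over 19 autosomes), against 6.84 ± 0.16. At exactly 8 steps, a summit value of 5.004, stood 48.1% of far positions (48.0 to 48.3%) and 26.7% of the remaining ones. Below 8 steps stood 5.28% of far and 4.20% of remaining positions, so this value is close to the lower end of the list. A summit value of 8 or more was held by 5.48% of far positions, against 24.1% of the remaining ones, and a value of 12 or more by 463 far positions (0.0774%), against 2.62%. Read the other way, 22.2% of all day 2 positions at 8 steps were far, 14.5% at 10 steps, 8.52% at 12 steps and 2.78% at 16 steps. Low summit values moved with membership, and their part in the other differences was not tested except where values at equal summit are given.

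The fuzziness score describes how widely the fragments of a position spread around its centre, in a unit the files do not state. Its median was 47.9 ± 0.21 in far positions and 51.5 ± 0.33 in remaining ones (SD over 19 autosomes), and the ranges over autosomes, 47.6 to 48.3 and 51.0 to 52.2, did not overlap. The difference was there at equal summit values. At 8 steps the medians were 47.2 and 50.8, at 10 steps 47.2 and 51.0, at 12 steps 47.1 and 51.3, and at 16 steps 46.6 and 51.1. A score under 40 was found in 12.5% of far positions and 4.35% of remaining positions. The difference in medians moved with gene density, in the bins described below. Far and remaining medians were 47.5 and 49.2 in the gene-poorest bins, and 48.0 and 52.9 in the gene-richest. Summit value and gene density were not held equal at once. The day 0 list gave the same order under the same rule, with a median fuzziness of 47.3 in its far positions against 51.3 in its remaining ones, and so did the day 1 list with 50.1 against 54.6. Mean summit values were 6.58 against 7.87 on day 0 and 5.84 against 7.43 on day 1. Low summit and low fuzziness therefore went with isolation in each of the 3 lists and are not particular to day 2.

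**Figure D2:**
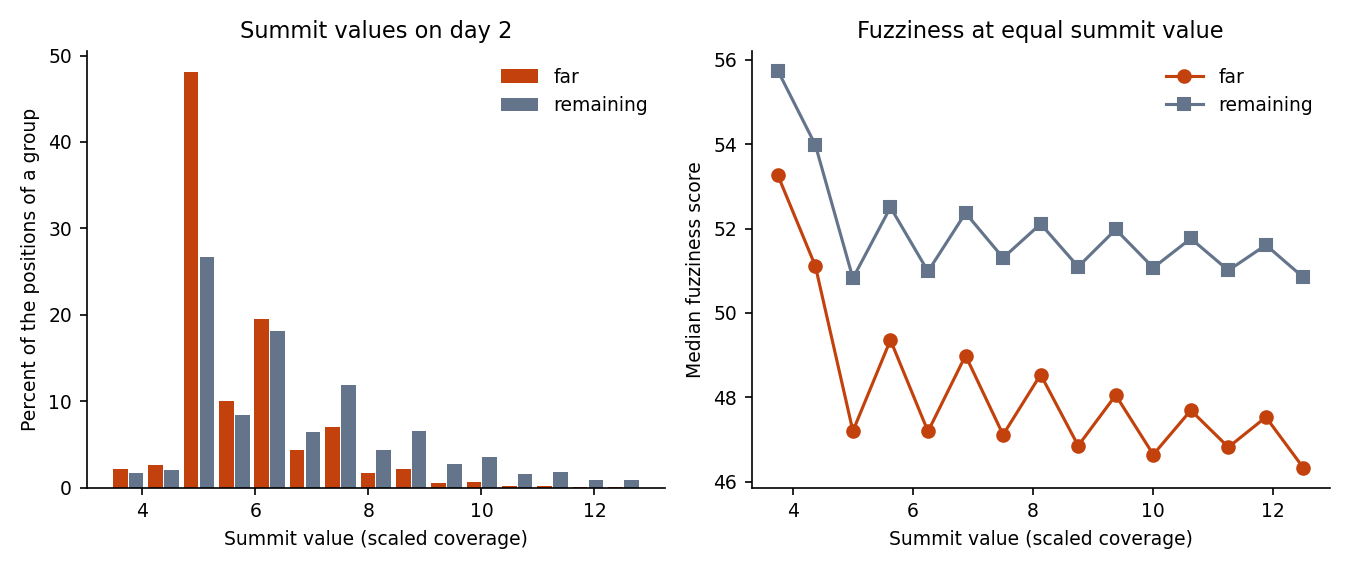
Left: share of each group (%) by summit value, the authors' scaled coverage, with far positions in orange and remaining day 2 positions in grey. Right: median fuzziness score at each summit value, where far positions lie below the remaining ones at every step drawn, from 6 to 20 steps.

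The 10 far positions with the highest summit values reached 16.3 to 19.4, below the 32.4 of the highest remaining position. The highest was on chromosome 10 from 125740731 to 125740871 (mm10), outside protein-coding genes and 225418 bp from Lrig3, a membrane protein gene. It lay 675 bp from a day 0 centre and 535 bp from a day 1 centre, so it only just met the rule. The second, with 18.1 on chromosome 9 from 25146721 to 25146861, lay in the body of Herpud2, at 565 and 690 bp. A position with 16.9 on chromosome 9 from 80292303 to 80292443 was in Myo6, the gene of an actin motor, at 2064 and 1242 bp. The most isolated of the 10 had 16.3 and lay on chromosome 12 from 60683466 to 60683606, at 5160 and 4375 bp from earlier centres and 365469 bp from the nearest protein-coding gene. Of the 10, 8 were outside protein-coding genes. One of these was on chromosome 12 from 103810391 to 103810531, 36828 bp from Serpina1d, a member of a cluster of near-identical protease inhibitor genes where mapping is uncertain.

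Most far positions shared a gap between earlier centres with other far positions. The rule confines them to such gaps, apart from chromosome ends, so this sharing is no evidence of grouping. Remaining positions were not counted in this way. Between neighbouring centres of the joined day 0 and day 1 lists there were 446833 gaps long enough to hold a far position, and 237120 of them (53.1%) held at least 1. All but 24 far positions were in such gaps, and those 24 lay beyond the first or last earlier centre of a chromosome. A gap that held any had a median length of 2685 bp and a median of 2 far positions. Alone in their gap were 16.9% of far positions, 36.9% were in gaps with at least 5, and 8.59% in the 4177 gaps with at least 10. Gaps of 2000 to 5000 bp held 42.1% of all far positions.

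The 5 gaps with the most far positions held 31 to 39 of them. The first, on chromosome 1 between centres at 101772506 and 101839023, was 66517 bp long with 39 far positions, and the nearest protein-coding gene, Cntnap5b, lay 1281907 bp away. Their mean summit value was 5.68 and their median spacing 1286 bp. A gap on chromosome 3 between 6015186 and 6054936 held 34, with Pex2 436590 bp away. The third, on chromosome 1 between 141236331 and 141262041, was the densest of the 5, with 32 far positions in 25710 bp, a median spacing of 300 bp and a mean summit value of 6.47, the highest single one being 11.9. On chromosome 16, between 68573206 and 68622926, 32 were found 952289 bp from Cadm2, a cell adhesion gene. The fifth, between 3894619 and 3928431 on chromosome 9, held 31 in the body of Gucy1a2, which encodes a subunit of soluble guanylate cyclase. Long gaps were not always filled, since the longest that held any, 307750 bp on chromosome 4, had 3.

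Neighbouring day 2 positions were also farther away. The nearest other day 2 centre lay a median of 285 bp from a far position (quartiles 201 and 695) and 190 bp from a remaining one (140 and 258). No other day 2 centre lay within 500 bp of 33.2% of far and 6.94% of remaining positions. Distances among far positions had their first maximum at 235 bp, between 230 and 245 bp on each of the 19 autosomes, and no regular series followed it. Distances among remaining positions had maxima at 135, 245, 395, 565 and 765 bp, and the one at 245 bp was higher than the one at 135 bp. In the gene-poorest bins described below, the first maximum was at 235 bp for far and 245 bp for remaining positions, and the median distance to the nearest neighbour was 308 and 245 bp. Most of the difference in the first maximum was thus absent within gene-poor sequence. Isolation still differed there, with no other day 2 centre within 500 bp of 37.6% of far and 21.1% of remaining positions.

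The rule can only take positions from sequence that the earlier lists left empty, and day 2 positions were sparse there. Sequence more than 500 bp from every earlier centre made up 784 of 2403 Mb, which is 32.6% ± 5.8 of the span of the autosomes (SD over 19 autosomes, from 18.6% on chromosome 11 to 40.3% on chromosome 3). It held 0.762 day 2 positions per kb, against 2.34 per kb in the 1619 Mb closer to earlier centres, a ratio of 0.326 ± 0.030 that ran from 0.286 on chromosome 7 to 0.396 on chromosome 13. The ratio was below 1 on all 19 autosomes. Unmappable sequence counts as empty in this length. Without the 79 gaps over 50 kb in which no list had a centre, 6.79 Mb in all, the ratio was 0.329. In equal lists it was 0.232.

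Gene-poor sequence held the largest part of the far positions. In the 5629 bins of 100 kb that had 0 or 1 protein-coding gene midpoint within the 1 Mb around them, 49.7% of day 2 positions were far (SD over autosomes 5.6, range 33.1 to 54.8%). These bins held 40.6% of all far positions, against 6.48% of the remaining ones, a difference of 34.1 ± 7.1 percentage points that was above 0 on every autosome (17.2 to 45.2). The far share fell through the classes of rising gene number, to 20.9% with 2 to 5 genes, 7.51% with 6 to 11, 3.85% with 12 to 21 and 3.31% with 22 to 72. In the gene-poorest bins the mean summit value was 5.68 for far and 6.01 for remaining positions, and in the gene-richest 5.76 and 7.52. Far positions were thus alike across the classes, and the remaining ones had higher values where genes were dense. The day 0 list again gave the same order, with 24.9% of its far positions in the gene-poorest bins against 4.65% of its remaining ones, and the day 1 list gave 33.4% against 3.96%.

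**Figure D3:**
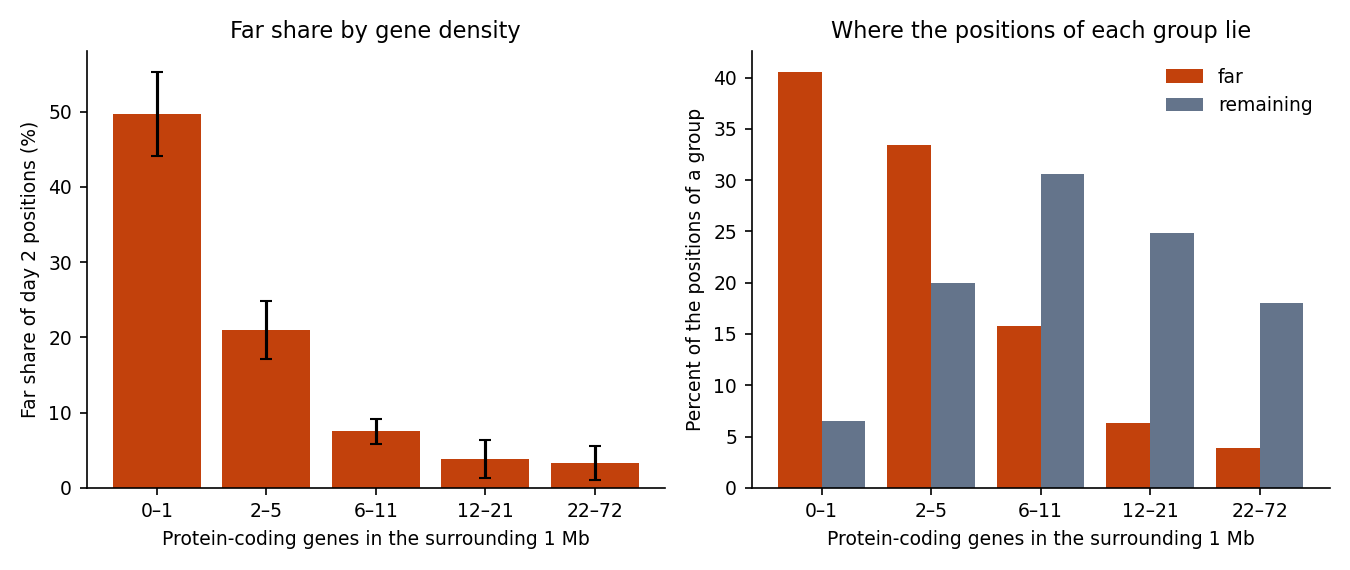
Left: far share of day 2 positions (%) in 100 kb bins grouped by the protein-coding genes in the surrounding 1 Mb, with SD over the 19 autosomes. Right: share of far (orange) and remaining (grey) positions in each class (%). The far share is 49.7% in the class with 0 to 1 gene and 3.31% in that with 22 to 72.

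By annotation, 71.3% of far positions (71.2 to 71.5%) and 45.8% of remaining positions lay outside protein-coding genes, a difference of 25.5 ± 3.8 percentage points, between 18.9 and 34.9 on the single autosomes. In lncRNA genes, and in no protein-coding gene, lay 6.70% and 7.27%. Pseudogenes held 1.19% and 0.829%, and no annotated gene of any kind held 62.9% and 37.4%. Inside protein-coding genes, 7.71% of day 2 positions were far. Outside them the far share rose with distance from the nearest one. It was 6.48% within 10 kb, 11.3% from 10 to 50 kb, 22.7% from 50 to 200 kb, 41.8% from 200 to 500 kb and 59.9% beyond 500 kb. Exons and introns were not separated, since the annotation used here has none. Far shares by chromosome ran from 6.18% on chromosome 11 and 9.15% on chromosome 19 to 18.3% on chromosome 14 and 19.4% on chromosome 3. Chromosome 11 is rich in genes and also had the most earlier positions, 2.39 per kb on day 0 and 2.02 per kb on day 1. With each autosome cut into 10 equal pieces, the far share was highest in the first, at the low coordinates, (21.5%) and lowest in the last (7.26%), with SDs over autosomes of 10.8 and 8.1, so single chromosomes departed from this order.

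At the scale of 1 Mb, the far share varied from 0 to 80.0%. Over the 2411 windows with at least 100 day 2 positions its median was 15.5%, with a 10th percentile of 0.426% and a 90th of 63.6%, and 40 windows held no far position. The highest was on chromosome 7 from 8000001 to 9000000, with 89, 64 and 459 positions on days 0, 1 and 2, and 367 of the day 2 positions were far. All 6 protein-coding genes that overlap it, Vmn2r40 to Vmn2r45, encode vomeronasal receptors, which detect pheromones. The window from 25000001 to 26000000 on chromosome 1, which contains Adgrb3, a brain adhesion receptor, had 153, 102 and 619 positions, with 471 far on day 2. Another on chromosome 1, from 115000001 to 116000000 in Cntnap5a, had 164, 85 and 697, with 528 far. At the other end, the window of chromosome 11 from 120000001 to 121000000, with 46 gene midpoints, had 4987, 5065 and 4714 positions, and none of the day 2 positions was far. The window of chromosome 9 from 21000001 to 22000000, which contains the erythropoietin receptor gene Epor, had 4603, 4804 and 4474 and none as well.

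Start sites of protein-coding genes had few far positions. Of the 573897 far positions on the 18 autosomes of the start site table, 1475 (0.257%) lay within 500 bp of one of 20054 start sites of 16429 genes, against 1.61% of remaining positions. The rule leaves out every position with an earlier centre nearby, as many starts have. Within 2000 bp of starts, in the direction of transcription, the remaining positions showed the ordered pattern known for active promoters, with a low point of 0.796 at 25 bp before the start, a first maximum of 1.53 at 95 bp after it and a second of 1.53 at 315 bp, all relative to the mean of the flanks from 1500 to 2000 bp. Far positions showed no such series. From 500 bp before to 500 bp after a start their number was 0.792 of the flanks (1553 counts, SD over 18 autosomes 0.18, range 0.438 to 1.31), against 1.11 for remaining positions (SD 0.050, range 1.05 to 1.22). From 50 to 250 bp after the start the values were 0.990 and 1.26. Chromosome 18 is not in the start site table, and its positions are left out of these shares and values.

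**Figure D4:**
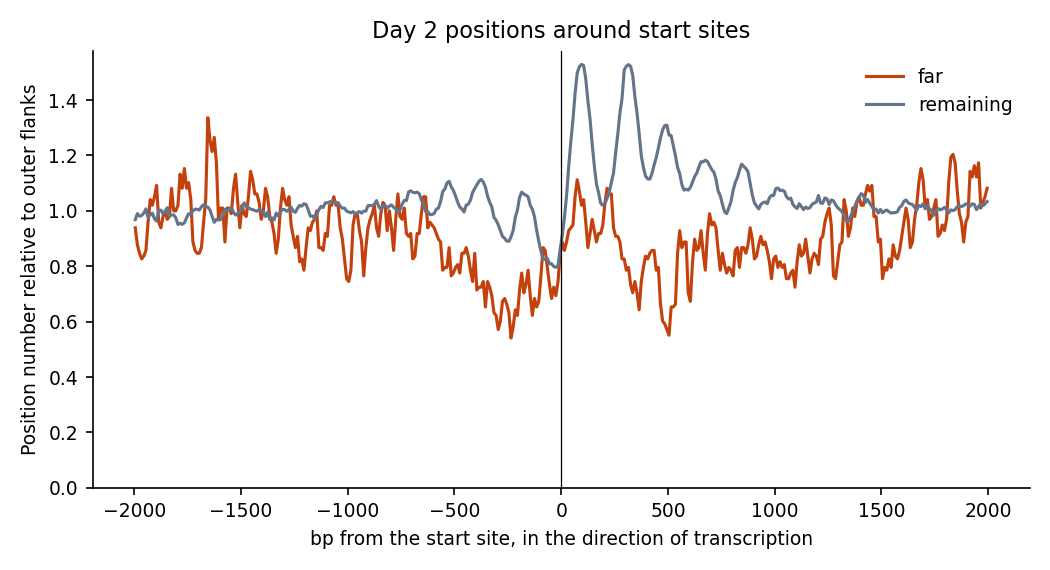
Number of far (orange, 7061) and remaining (grey, 250807) day 2 positions by distance in bp from the start sites of protein-coding genes, in the direction of transcription. Values are relative to the mean of the outer flanks in steps of 10 bp, averaged over 5 steps, and the maxima at 95 and 315 bp are seen for remaining positions.

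Most genes held no far position. Of 20556 protein-coding genes on the autosomes, 15084 had at least 20 day 2 positions over the whole gene, and 9090 of these (60.3%) had none that was far, so that the median far share was 0. The 90th percentile was 20%. By a size rule of 2 times the autosome share, a far share of at least 27.3%, 1159 genes were higher (7.68%), and by 0.5 times, a share of at most 6.82%, 12223 were lower (81.0%). Long genes stood apart. Pooled over genes, the far share was 2.85% in genes up to 10 kb, 2.51% from 10 to 50 kb, 4.55% from 50 to 200 kb, 12.03% from 200 to 500 kb and 32.9% in the 215 genes over 500 kb. These 215 genes held 65432 far positions, more than the 41231 in the 3771 genes of 50 to 200 kb.

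Vomeronasal receptor genes had the highest pooled far share of the gene lists, though its interval overlapped that of the long synaptic genes below (53.5 to 54.6%). Of the 349 genes, 48 had at least 20 day 2 positions, and 40 of these were higher and 2 lower by the size rule, where 7.68% of all genes were higher and 81.0% lower. Pooled over all 349, 1505 of 2719 day 2 positions were far (55.4%, 53.5 to 57.2%), and 82 genes had no day 2 position. Vmn2r7, on chromosome 3 from 64690660 to 64719602, had 3, 1 and 24 positions on days 0, 1 and 2, and 23 of the day 2 positions were far. Vmn2r92 had 2, 2 and 23, with 22 far, and Vmn2r62 had 2, 3 and 29, with 27 far. At the low end Vmn2r129 had 20, 17 and 30 and none far, and Vmn1r4 39, 33 and 45 with 3 far. Per 10000 positions of each list, the family had a density of 2.81 for day 0, 2.47 for day 1 and 6.20 for day 2. Receptors of this family are close copies of each other, so the assignment of fragments among them is uncertain.

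The long synaptic and adhesion genes, most of them known from the nervous system, followed. All 35 had at least 20 day 2 positions, and 33 were higher and 0 lower by the size rule, against 7.68% and 81.0% of all genes. Their median far share was 62.1%, where the median over all genes was 0. Their 35801 day 2 positions, of which 19350 were far, were 81.7 per 10000 positions of the list, against 43.0 on day 0 and 29.1 on day 1. Cdh9, a cadherin gene on chromosome 15 from 16728550 to 16857138, had 10, 22 and 85 positions, with 67 far (78.8%, 68.6 to 86.9%). Cdh10 had 22, 24 and 132 with 96 far, and Csmd3, a large membrane protein gene, 164, 169 and 848 with 613 far. The lowest of the list were Sox5, a transcription factor gene, with 215 far of 1601 (13.4%), and Csmd2 with 101 of 603 (16.7%). The 5 genes with the most far positions over the genome were Ptprd (1030 of 1523), Lsamp (959 of 1544), Macrod2 (943 of 2215), Cntnap2 (924 of 1830) and Lrp1b (890 of 1448), each of them in this list. The list was written with the earlier results on long genes known, so its direction is no independent evidence.

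Other genes of clustered families differed among themselves. Of the 10 genes with the highest far share, 3 are the vomeronasal receptors above and 4 lie in predicted or provisional models, of which Gm5784 (29 far of 31), Gm6943 (24 of 27) and Gm40853 (20 of 22) lie within 1 Mb of each other on chromosome 12. The others were LOC108168187 (25 of 28) among those models, then Nlrp9a, a gene of the NLR family (24 of 26), Klra5, a receptor gene of natural killer cells (23 of 26, with 0 positions on day 0 and 5 on day 1), and Adam34l (48 of 55). Olfactory receptor genes are short, and 17 of 1103 had at least 20 day 2 positions, of which 8 were higher and 7 lower (47.1% and 41.2%, against 7.68% and 81.0% of all genes). Pooled over all 1103, 889 of 2905 positions were far (30.6%, 28.9 to 32.3%), and 234 genes had no day 2 position. Olfr111 had 13 far of 20, Olfr183 46 of 73 and Olfr1280 23 of 45, where Olfr1358 had 0 of 50 and Olfr287 0 of 27. Zinc finger protein genes ranged from 0 to 85.7%, with 27 of 350 higher (7.71%, against 7.68% of all genes) and 253 lower (72.3%, against 81.0%). Zfp616 had 18 far of 21, Zfp804b 254 of 358 and Zfp735 16 of 25, where Zfp469 had 0 of 790 and Zfp609 0 of 480.

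The clustered protocadherin genes, cell surface proteins that give neurons their identity, fell into 2 sets. Of 33 with at least 20 day 2 positions, 12 were higher (36.4%, against 7.68% of all genes) and 21 lower (63.6%, against 81.0%), with none between. The highest were Pcdha12 (64 far of 140, 45.7%), Pcdha11 (69 of 151) and Pcdha10 (69 of 158), and the lowest Pcdhgc3 (1 of 109) and Pcdhgc4 (1 of 83). Genes of these clusters share their last exons, so the same positions count in several of them and the genes are not independent. Hox genes, which pattern the body axis, had 4 far of 889 pooled positions (0.450%), and keratin and keratin-associated genes 18 of 1211 (1.49%), with none of 10 and none of 16 higher, which is near the 7.68% of all genes. Krt23 had the highest share of the keratin list (2 of 27), then Krt10 (1 of 20) and Krt222 (0 of 29), and Krt78 (0 of 166) and Krt80 (0 of 98) were lowest. For the Hox genes these were Hoxc9 (2 of 21), Hoxd3 (2 of 84) and Hoxa10 (0 of 40), then Hoxa3 (0 of 137) and Hoxb3 (0 of 134).

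**Figure D5:**
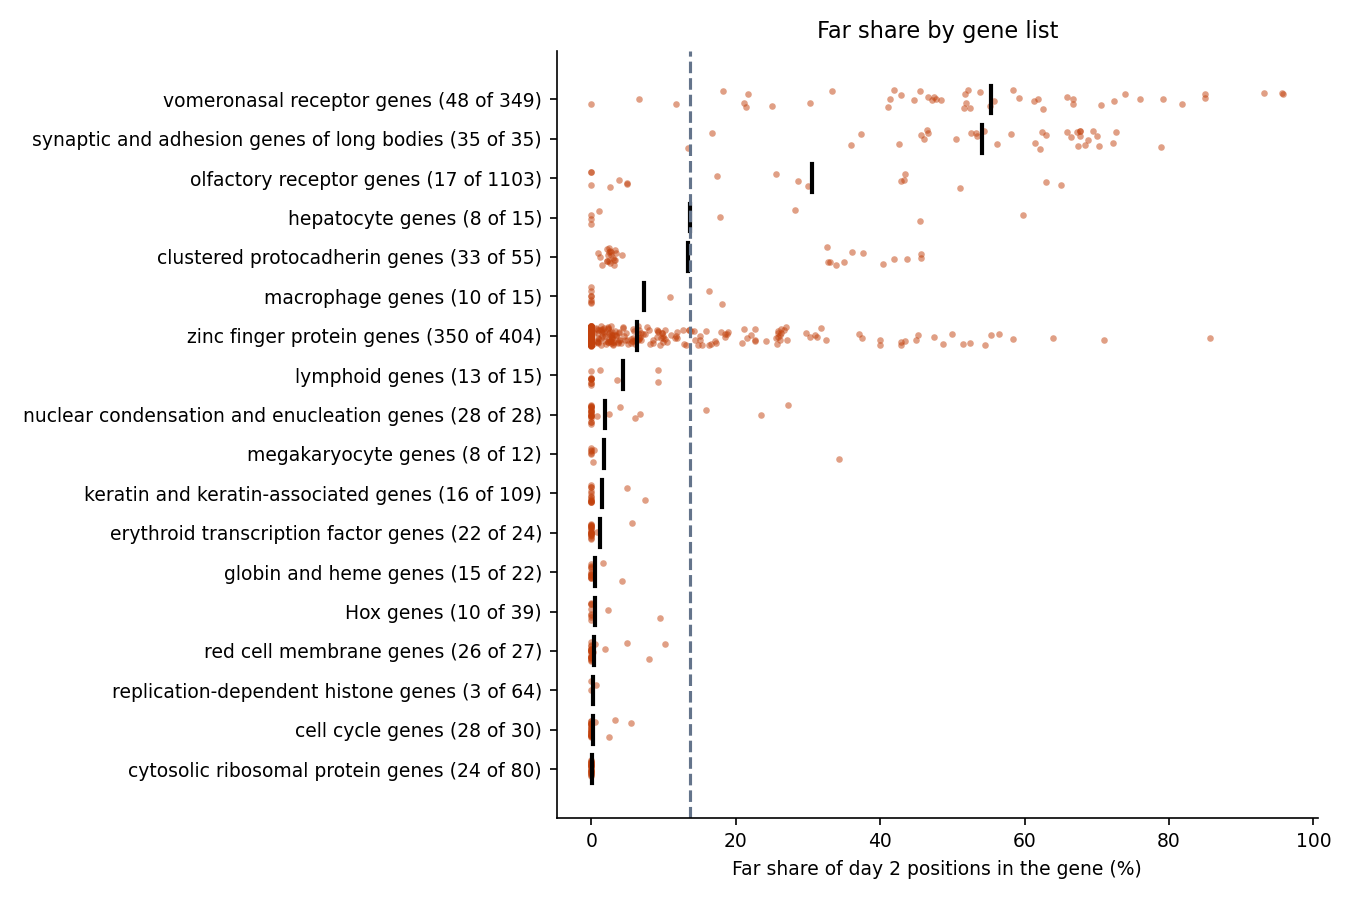
Far share of day 2 positions (%) in each gene with at least 20 of them (points, spread vertically only to separate them), by gene list, with the number of such genes and of all genes found in brackets. Black bars give the share pooled over all genes of a list, and the dashed line the autosome share of 13.6%. The share inside protein-coding genes, not drawn, was 7.71%. Vomeronasal receptor and long synaptic genes have the highest pooled shares and cytosolic ribosomal protein genes the lowest.

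Erythroid genes held almost no far positions. Of 22 measured erythroid transcription factor genes 20 had none, where 60.3% of all measured genes had none. All 22 were lower by the size rule, where 81.0% of all genes were. Pooled, 64 of 5589 positions were far (1.15%, 0.883 to 1.46%), and 63 of the 64 lay in 1 gene, Sox6, a repressor of embryonic globin genes on chromosome 7 from 115470872 to 116040776, with 1121, 791 and 1119 positions on days 0, 1 and 2. Myb, a factor of progenitor growth, had 1 of 134, and Bcl11a (386), Runx1 (1003) and Foxo3 (428) had 0. Chosen for its role and outside the naming rule, Klf1, an activator of globin genes, had 16, 16 and 14 positions and none far. In these counts the share near 0 is also that of most genes, and nothing particular to the erythroid programme is read from it.

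The same held for the genes of red cell products. Globin and heme genes, 22 of 25 found, had 7 far of 1278 pooled positions (0.548%). Of 15 measured genes 13 were at 0, where 60.3% of all measured genes were. The far positions lay in Ireb2, an iron sensor (5 of 118), and Slc25a37, the mitochondrial iron carrier (2 of 123). Abcb10 (137), Slc11a2 (157) and Steap3 (148) had 0. Red cell membrane genes had 20 of 4918 (0.407%), with 24 of 26 lower (92.3%, against 81.0% of all genes) and 0 higher. Kel, a blood group protein gene, had 4 of 39 and Rhag, a subunit of the Rh complex, 4 of 50, where Epb41 (578) and Sptb (477) had 0. Position numbers for this list were 4659, 4743 and 4918 on days 0, 1 and 2. Per 10000 positions of each list they were 12.6, 15.98 and 11.2, highest on day 1, whose list is the shortest. Cytosolic ribosomal protein genes had the same order (3.56, 4.60 and 3.06), so it is not particular to red cell genes.

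Ribosomal protein, histone and cell cycle genes also had few far positions. The intervals of the cell cycle and histone lists overlapped those of the red cell lists. All 24 measured cytosolic ribosomal protein genes had no far position, where 60.3% of all measured genes had none. Pooled over 80 genes, 1 of 1342 positions was far (0.0745%). Measured examples were Rpl18 (0 of 22), Rpl19 (0 of 41), Rpl22 (0 of 34), Rps15a (0 of 49) and Rpl3l (0 of 47). The 64 replication-dependent histone genes had 1 of 398, in the measured gene H2bc6 (1 of 141), with 0 of 62 in H2bc22 and 0 of 31 in H2bc4. Cell cycle genes had 7 of 2832 (0.247%), and all 28 measured were lower, where 81.0% of all genes were. Ccne2 had 2 of 36, Mcm4 1 of 31 and Bub1 2 of 82, where Cdk6 (676) and Ccnd3 (436) had 0.

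Genes of nuclear condensation and enucleation, 28 of 32 found, had a higher pooled share than the other erythroid lists. Pooled, 77 of 3967 positions were far (1.94%), 25 of 28 measured genes were lower (89.3%, near the 81.0% of all genes), 0 were higher (7.68% of all genes) and 3 lay between. Those 3 encode chromosome proteins. Ncapg, a condensin subunit on chromosome 5 from 45669891 to 45700547, had 21, 24 and 44 positions with 12 far (27.3%, 14.96 to 42.8%), just under the size rule. Top2b, a topoisomerase, had 47, 52 and 81 with 19 far (23.5%), and Smc2, the ATPase shared by the condensins, 54, 43 and 82 with 13 far (15.9%). Cit (555) and Hdac5 (187) had 0. Other chromosome protein genes of the list, given here outside the naming rule, did not share the higher values. The condensin genes Ncaph and Ncapd2 and the topoisomerase gene Top2a had a far share of 0. Smc4, also a condensin gene, had 6.06%, lower by the size rule. The intervals of Ncapg, Top2b and Smc2 lie above the pooled share of the list, but these genes are the extremes of it and the intervals cover counting error only.

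Genes of other cells in fetal liver were counted in the same way. Hepatocyte genes had 76 far of 558 (13.6%, 10.9 to 16.7%), where the autosome share was 13.6% and that inside protein-coding genes 7.71%. Of 8 measured genes, 3 were higher and 4 lower, against 7.68% and 81.0% of all genes. Cps1, the entry enzyme of the urea cycle, had 43 of 72, Alb, serum albumin, 10 of 22 and Apob 11 of 39, where Trf (81) and Apoa2 (23) had 0. Macrophage genes had 89 of 1213 (7.34%), with 0 of 10 higher and 7 lower, near the shares of all genes. Adgre1 had 44 of 243, the mannose receptor gene Mrc1 38 of 233 and Marco 7 of 64, where Itgam (217) and Csf1r (101) had 0. Lymphoid genes had 70 of 1588 (4.41%), with Ebf1, a B cell factor, at 52 of 563, Bcl11b at 13 of 140, Rag1 at 1 of 28, and Lck (111) and Cd4 (100) at 0. Megakaryocyte genes had 27 of 1486 (1.82%), of which 24 lay in Gp6, a collagen receptor of platelets (24 of 70), with Itgb3 at 1 of 250, Fli1 at 1 of 448, and Vwf (512) and Itga2b (79) at 0. Positions do not measure expression, so the makeup of the cultures on the 3 days cannot be read from these counts, and their part in the far share was not tested.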

How the data were processed

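Nucleosome positions of 3 libraries (day 0, day 1 and day 2, 1 library each) were taken as the authors deposited them. Bowtie2, bedtools and the build mm10 are named in the submitters' processing notes, without versions, while the caller, its filters and read totals are unknown here. The deposited summit value was read as a coverage signal at the centre, and the deposited fuzziness score as the spread of fragments, in a unit that is unknown. The p-values per position that the authors deposited were not used. Each position has a width of 140 bp, and the centre was taken as deposited. The autosomes were used, and a day 2 position was far at more than 500 bp from every day 0 and day 1 centre of its chromosome.

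The length of far sequence was counted between the first and last centre of each chromosome. Gene coordinates came from the RefSeq table of GRCm38.p6, without genes starting below 3 Mb, and start sites and promoter sequences from the RefSeq promoter table of that build. Bins of 100 kb were classed by protein-coding gene midpoints in the surrounding 1 Mb. Pairs of centres up to 1500 bp apart gave the smoothed spacing curve. Gene shares used genes with at least 20 day 2 positions, and overlapping genes share positions. Named were the 10 genes of highest far share, the 5 with the most far positions, the 3 highest and 2 lowest of each list, the 10 far positions of highest summit value and the 5 gaps with the most far positions. One gene that this rule names is not reported here. The far positions, the gene lists and the rules were chosen with earlier results of these data known. Distances, lengths and spacing were tested on simulated data. Alternatives varied the distance, the earlier lists used, the list length and the gene limits. Python 3.11.15, numpy 2.4.6, pandas 2.3.3, scipy 1.17.1 and matplotlib 3.10.9 were used.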

Additional observations from a re-analysis of the deposited data

Results flagged for a closer look

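The sex chromosomes and the mitochondrial genome were outside the comparisons, and the same rule found far day 2 positions on each. On chromosome X there were 43896 far positions among 88409 (49.7%, exact 95% interval 49.3 to 49.98%), with 45232 positions listed on day 0 and 30972 on day 1. On chromosome Y there were 2343 among 3396 (69.0%), with 1127 and 975 positions on the earlier days. The mitochondrial genome, which has no nucleosomes, had 23 among 89 (25.8%, 17.1 to 36.2%), with 16 and 5 listed earlier. They are listed because they lie outside the comparisons, and the autosome share was 13.6%. The labels do not say which sex the fetuses had.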

How the results depend on the processing

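The number of far positions changed with the rule. Of the 4382151 day 2 positions it took 966267 at a distance of 250 bp (22.1%) and 330034 at 1000 bp (7.53%), where the main share was 13.6%. It took 903562 with the day 0 list only (20.6%) and 1207285 with the day 1 list only (27.6%). In lists of equal length (ties of summit value broken at random with a fixed seed) it took 354111 of 2967550 (11.9%). Among the 945946 day 2 positions whose summit value was at least 8, it took 32762 (3.46%). Directions held in all alternatives run. The median summit difference was -0.63 with the day 0 list only and -0.63 with the day 1 list only, and the median fuzziness difference -3.18 with the day 0 list only. In the order 250 bp, 1000 bp, day 0 list only, day 1 list only and equal length, the difference outside protein-coding genes was 22.3, 28.2, 23.2, 21.5 and 25.7 percentage points, and 31.1 with 5 kb added to each gene end. In that order the difference in the gene-poorest bins was 26.9, 41.9, 28.6, 24.1 and 31.8 points, and the density ratio 0.336, 0.320, 0.376, 0.350 and 0.232. Without gaps over 50 kb, an alternative chosen after seeing the data like the equal lists for days 0 and 1, the ratio was 0.329. Genes at 2 times the autosome share of each setting numbered 905 of 15084 at 1000 bp and 1183 of 13859 in equal lists. With a limit of 10 day 2 positions per gene they numbered 1440. Among day 2 positions with a summit value of at least 8 they were fewest, 598 of 8547. A shorter distance or the use of 1 earlier list raises the number of far positions by construction. The cause of the other shifts was not tested. No paired analysis was possible because there is 1 library per day, and no library could be left out. Of the far positions, 48.1% stand at 8 steps of coverage, near the lower end of the list, and what a greater depth would add was not tested.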
